A study of Mus musculus with 13 samples.

Results

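AMPA receptors carry most fast excitatory transmission in the hippocampus, and 10 genes of their make-up were followed here in the denervated CA1 region. The members were chosen by name: the 4 pore-forming subunits Gria1, Gria2, Gria3 and Gria4, and 6 auxiliary proteins, namely Cacng2, Cacng3, Cacng8, Cnih2, Cnih3 and Shisa9. All 10 were found among the 55291 gene symbols counted. Each of the 13 libraries was made from RNA of the CA1 region of a single entorhino-hippocampal tissue culture, prepared from wildtype C57BL/6 mice (C57BL/6J in the growth protocol) at postnatal day 4 to 5 and kept for at least 18 days in vitro. The 5 controls were not lesioned, 4 cultures had a Schaffer collateral lesion (SCL), which cuts the axons from CA3, and 4 had an entorhinal cortex lesion (ECL), which cuts the input from the entorhinal cortex. Lesioned cultures were isolated 3 days after the cut, without the scar tissue. Neither transgenes nor drugs were part of these groups, and whether cultures shared an animal is not given in the sources used here, so p-values measure the spread between cultures. The headings of the count columns end in f or m, read here as female and male. By this letter, 3 of the 5 controls were labelled female, as were 3 of the 4 cultures with SCL and 1 of the 4 with ECL.

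AMPA receptors are tetramers, and the subunit mix sets their conductance and calcium permeability. Gria2 holds a particular place, because its transcript is edited at the Q/R site, where a glutamine codon is read as arginine and the channel then passes little calcium. Auxiliary proteins bind the subunits on their way to the membrane and at the synapse: TARPs (the Cacng genes here) and cornichons (Cnih2, Cnih3) tend to slow gating and promote surface delivery, while Shisa9, also called CKAMP44, modulates desensitization and its recovery. In CA1 pyramidal cells, receptors of Gria1 and Gria2 with Cacng8 and Cnih2 are known as a main form.

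The Q/R site is the part of the subunit genes on which the calcium permeability of the receptor turns. The genomic sequence around it was read from GRCm38, with the codon of the Q/R site in capitals and each window on the strand of its gene. All windows lie in coding exons, in exon 11 of 16 for Gria1 (chr11:57243079-57243111, plus strand), Gria2 (chr3:80706896-80706928, minus strand) and Gria3 (chrX:41610250-41610282, plus strand), and in exon 12 of 17 for Gria4 (chr9:4464122-4464154, minus strand).
Gria1: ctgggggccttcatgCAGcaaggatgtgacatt
Gria2: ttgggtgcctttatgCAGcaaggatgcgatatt
Gria3: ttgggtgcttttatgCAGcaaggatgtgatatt
Gria4: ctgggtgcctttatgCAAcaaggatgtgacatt
Over the 33 bases, the windows of Gria1, Gria3 and Gria4 matched that of Gria2 at 28, 31 and 29 bases. Gene counts do not show whether a transcript was edited, and editing and the flip and flop splice forms were not analysed here.

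The values are raw counts, scaled here to CPM, the usual unit of counts relative to library size, with TMM factors over the genes with a mean of at least 150 normalized counts. Totals ran from 14371152 to 56786613 counts a library, with medians of 18225356 in controls, 33773026 after SCL and 23291778 after ECL. All 9 CA1 pyramidal cell markers had a mean above 1 CPM in each group. Their summed level ran from 428 to 599 CPM in controls, 413 to 520 after SCL and 472 to 590 after ECL. The 8 CA3 pyramidal cell markers summed to 469 to 585 CPM in controls, 333 to 474 after SCL and 329 to 413 after ECL. A sum depends on the genes listed, so these levels do not measure shares of cells. The titles and the study name CA1, although the labels' extraction protocol mentions the dentate gyrus. Of the 9 dentate granule cell markers, only Dsp and C1ql2 had a mean under 1 CPM in each group. The others were above it, with Prox1 at 16.3, Stxbp6 at 53.6 and Calb1 at 109 CPM in controls. Together the 9 markers reached 121 to 251 CPM over the libraries, and the presence of granule cells was not tested. The libraries also differed in how counts depended on gene length: the slope of log2 level per doubling of exon length was 0.0631 to 0.127 in controls, -0.102 to -0.0143 after SCL and -0.0975 to 0.000902 after ECL, so that every lesioned library had a lower slope than every control.

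Per exon length, Gria2 and Gria1 were the most abundant members in the control cultures, at 91.2 ± 8.77 and 86.4 ± 11.9 CPM per kilobase (SD, n = 5), and their ranges overlapped. Cnih3 came next at 34.7 ± 3.23 CPM per kilobase. Gria3 had 27.6 ± 4.41 and Cnih2 had 23.4 ± 10.9 CPM per kilobase, and the ranges of neighbours in this order overlapped here as well. Lower down stood Cacng3 at 9.40 ± 1.52, Gria4 at 7.88 ± 2.51, Cacng2 at 4.68 ± 0.799 and Shisa9 at 3.33 ± 0.676 CPM per kilobase, each overlapping its neighbour. Cacng8, the TARP known for its hippocampal expression, was the lowest member at 0.886 ± 0.304 CPM per kilobase and did not overlap any other. Its counts ran from 16 to 123 a library, which is under the mean minimum of 150, so that it was not tested. Of the members, Cacng8 has the highest GC content, 65.1% in its longest transcript. The part of GC content in its low counts was not tested.

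**Figure D1:**
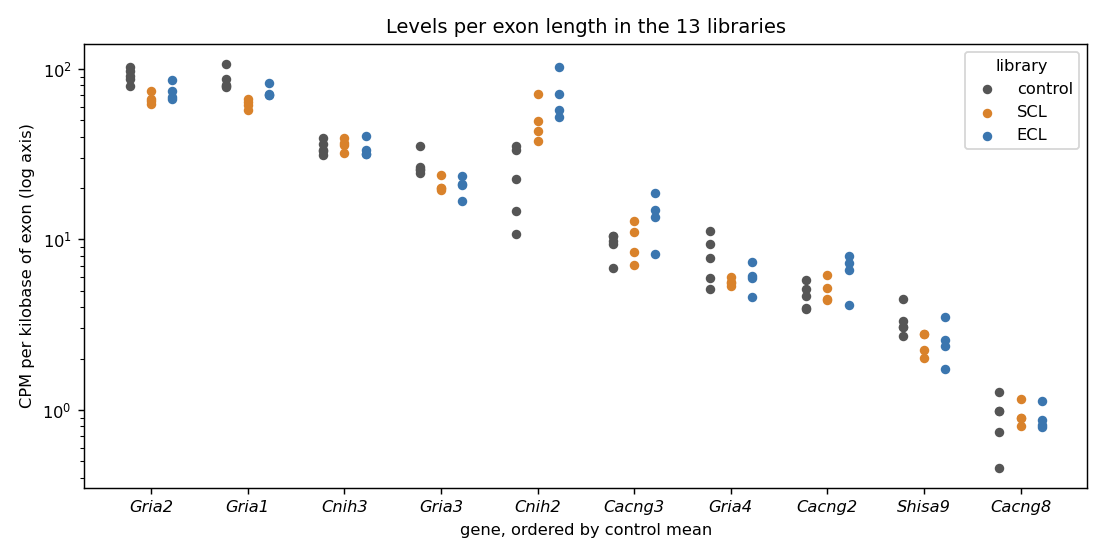
Level of each member gene in CPM per kilobase of exon (log axis), 1 point per library, grey for the 5 controls, orange for the 4 SCL and blue for the 4 ECL libraries. Gria2 and Gria1 lead in all groups, and Cnih2, behind Cnih3 and Gria3 by the mean in controls (23.4), is ahead of both after SCL (50.5) and ECL (70.8).

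After both lesions, Cnih2 moved up in this order. Its mean was 50.5 ± 14.7 CPM per kilobase after SCL and 70.8 ± 22.5 after ECL (SD, n = 4 each), directly behind Gria2 and Gria1. After ECL its range, 51.9 to 102 CPM per kilobase, overlapped those of Gria2 (66.7 to 85.6) and Gria1 (69.9 to 82.5). The order of the remaining genes changed only where Cacng2 and Gria4 traded places after ECL, at 6.48 ± 1.68 and 5.98 ± 1.12 CPM per kilobase, with overlapping ranges.

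**Figure D2:**
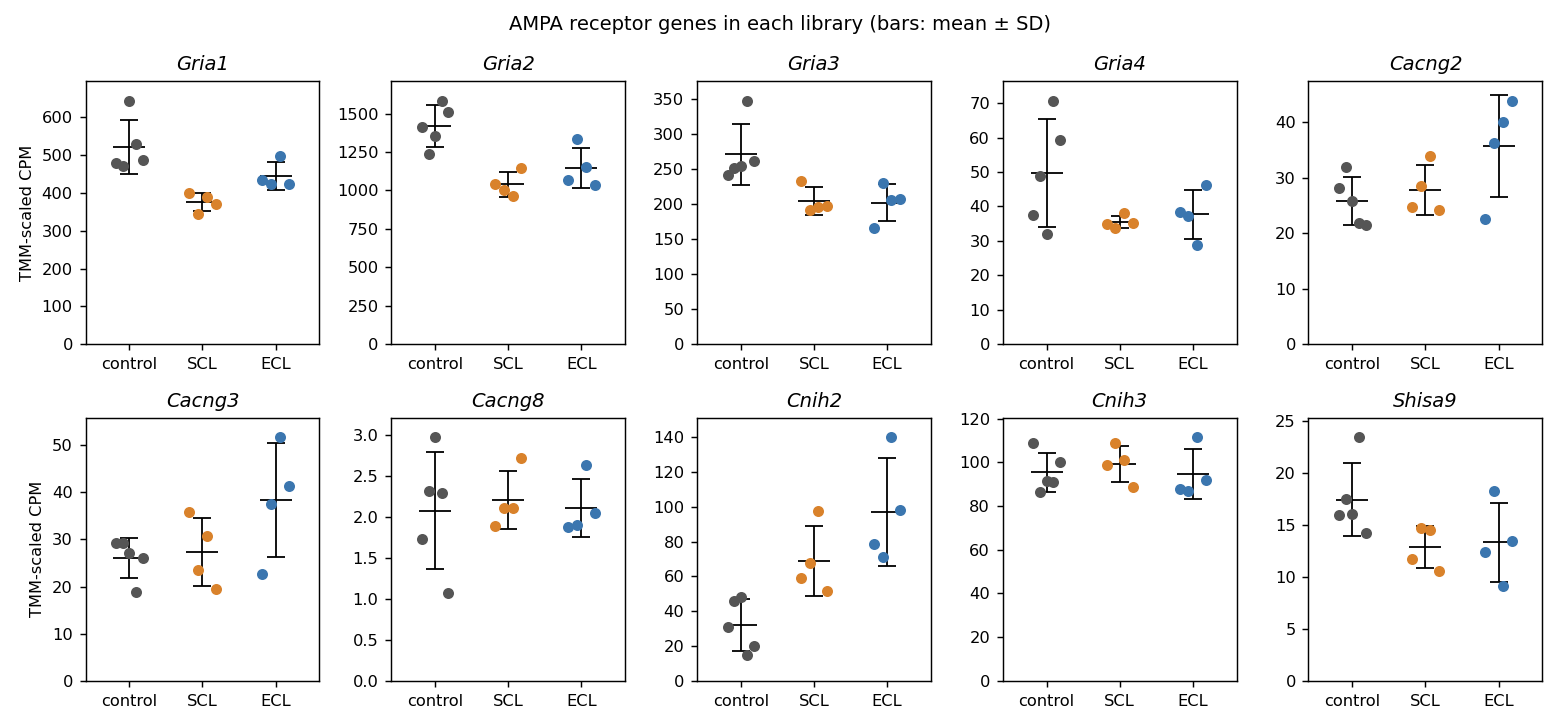
TMM-scaled CPM of the 10 members (vertical axes, each from 0) in control, SCL and ECL libraries, 1 point per library, with bars for mean ± SD. Cnih2 lies above all controls in the 8 lesioned libraries, while Gria1, Gria2 and Gria3 lie below all controls in the 4 SCL libraries.

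Denervation by SCL was followed by lower counts of 3 of the 4 subunit genes and higher counts of 1 auxiliary gene. Gria1, Gria2 and Gria3 fell, Cnih2 rose, and the other 5 members tested did not pass the threshold. Thus 4 of 9 members were called (edgeR's quasi-likelihood test, adjusted p under 0.05 over all genes tested), while 24.6% of all 11733 genes tested were called, 13% with higher and 11.6% with lower counts. The same 4 members did not overlap with the controls in CPM, as did 23.3% of all genes. The median log2 fold change was -0.46 over the 4 subunits, 0.07 over the 5 auxiliary genes tested and 0.01 over all genes tested.

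Gria1 encodes the subunit whose phosphorylation and synaptic insertion are best known from long-term potentiation. The gene spans chr11:57011387-57330244 (plus strand). The controls had 479, 471, 644, 528 and 488 CPM, the SCL libraries 399.8, 345, 389 and 370.3 CPM. All SCL libraries were below the lowest control. Gria1 fell by 28.0% (log2 fold change -0.47, SE 0.14, adjusted p = 0.0265 by edgeR).

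Gria2, the subunit that limits calcium entry, lies on chr3:80681450-80802835 (minus strand). Its levels were 1412, 1234, 1351, 1585 and 1508 CPM in controls and 1042, 1004, 964 and 1148 CPM after SCL. Again, no SCL library reached the lowest control. Gria2 fell by 26.6% (log2 fold change -0.45, SE 0.14, adjusted p = 0.0317 by edgeR).

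Gria3 encodes a subunit that pairs mainly with Gria2 in receptors cycling at synapses (chrX:41400854-41678601, plus strand). Controls had 241, 252, 255, 348 and 262 CPM and SCL libraries 234, 192, 196 and 197 CPM. The highest SCL library lay just under the lowest control. Gria3 fell by 24.4% (log2 fold change -0.40, SE 0.14, adjusted p = 0.0481 by edgeR).

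Gria4, known for its expression in interneurons and in the developing hippocampus (chr9:4417896-4796234, minus strand), had 37.5, 48.8, 32.1, 70.8 and 59.4 CPM in controls and 34.9, 33.8, 38.0 and 35.2 CPM after SCL. The groups overlapped, since the controls spread widely. Its log2 fold change of -0.48 (SE 0.21) had an adjusted p of 0.102 by edgeR.

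**Figure D3:**
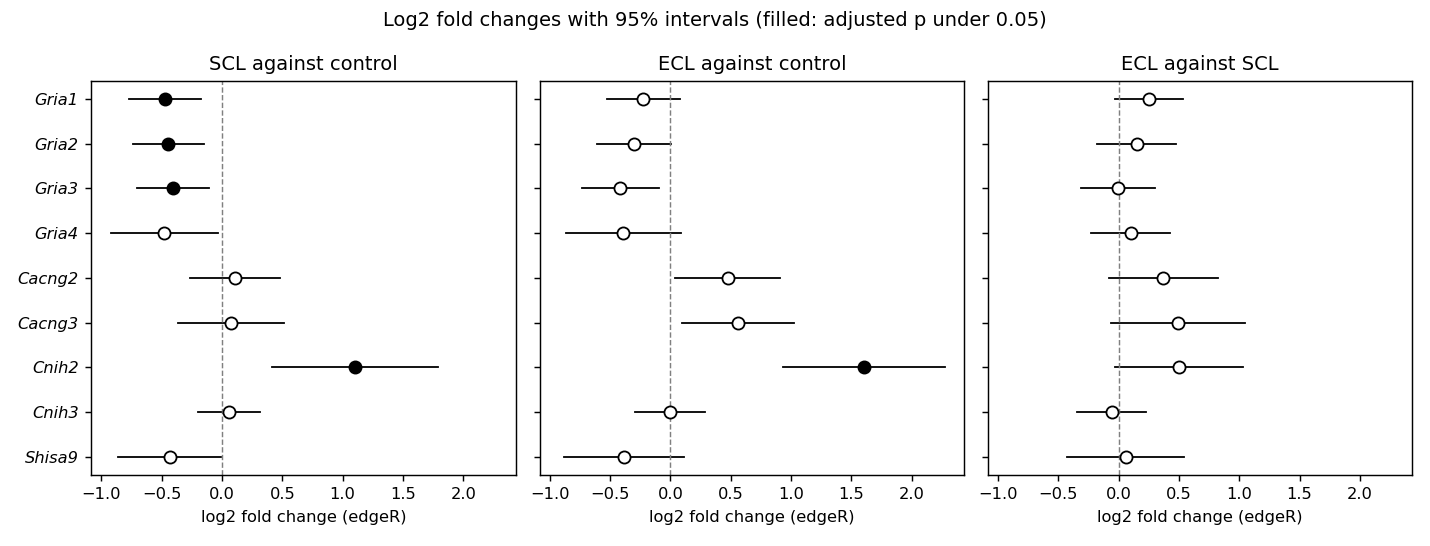
Log2 fold change by edgeR (horizontal axis, 95% intervals) of the 9 members tested in each of the 3 comparisons, filled where the adjusted p is under 0.05. Filled points are Gria1, Gria2, Gria3 and Cnih2 after SCL and Cnih2 alone after ECL, and no member is filled between the lesions. With an offset for exon length and GC (not plotted) the sign of Gria2 turned in both lesions.

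The 3 subunit calls stood near the threshold. They held with RLE factors and were lost with 2 other scalings. With TMM factors over all symbols, the median of all genes tested moved from 0.01 to 0.21, the split of calls from 1529 higher and 1362 lower to 2554 and 602, and Gria1, Gria2 and Gria3 had log2 fold changes of -0.26, -0.24 and -0.19 (adjusted p = 0.168, 0.217 and 0.310 by edgeR). Scaled to the 12 neuron markers, they had -0.30, -0.26 and -0.23 (adjusted p = 0.139, 0.212 and 0.202), none called, while Cnih2 stayed called with both scalings. Summed neuron markers ran from 5044 to 5853 CPM in controls and 4321 to 5401 after SCL, with 3 of 12 markers lower and 0 higher. All 12 microglia markers were higher after SCL, and their sum ran from 580 to 696 CPM in controls and 1167 to 2437 after SCL. In bulk tissue, fewer cells of a type and less RNA per cell cannot be told apart, and the part of these shifts in the subunit differences was not tested beyond the scaling above.

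Gene length and base composition moved with the subunits as well. Gria2 has 15548 and Gria3 9859 bases of exon, both in the top length class when the genes tested are cut into 5 classes of equal size, of which 23.4% were called lower after SCL and 2.98% higher. In the shortest class, which holds Cnih2 with 1369 bases, 5.92% were lower and 29.5% higher. With an offset for exon length and GC, Gria1 stayed called at -0.40 (adjusted p = 0.0431), Gria2 turned to 0.14 (adjusted p = 0.386) and Gria3 went to -0.13 (adjusted p = 0.408 by edgeR). Cnih2 stayed called at 0.95 (adjusted p = 0.0101).

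Single libraries mattered too. Gria1 lost its call without control 3 (adjusted p = 0.0521), SCL 2 (0.0837), SCL 3 (0.0564) or SCL 4 (0.0515). Gria2 lost it without control 1 (0.0572), control 5 (0.0662), SCL 1 (0.0519), SCL 2 (0.0883) or SCL 3 (0.0867). Gria3 kept its call only without SCL 1, and without each of the other 8 libraries its adjusted p lay above the threshold, up to 0.125 without SCL 2. These are adjusted p-values by edgeR, and the log2 fold changes stayed negative, from -0.51 to -0.31 over the 3 genes.

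**Figure D4:**
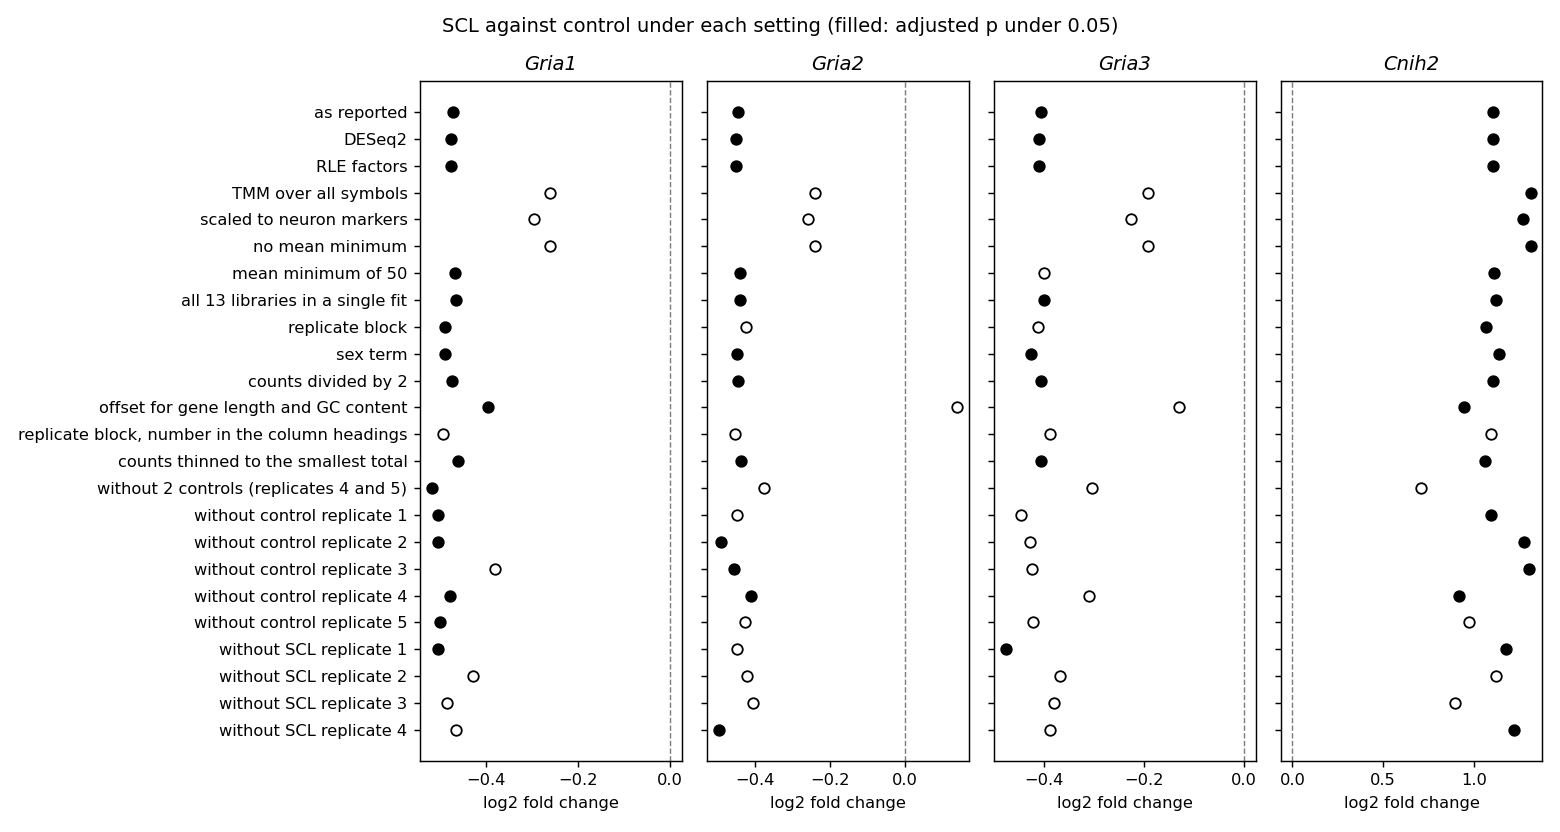
Log2 fold change (horizontal axes) of Gria1, Gria2, Gria3 and Cnih2 after SCL as reported and under each of 23 alternatives (rows), filled where the adjusted p is under 0.05. Gria3 is filled under 7 alternatives and Cnih2 under 18, and the only point that crosses 0 is Gria2 with the offset for exon length and GC.

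Among the auxiliary genes, Cnih2 had the largest difference of the members after SCL. Cnih2 encodes a cornichon that promotes export of AMPA receptors from the endoplasmic reticulum and slows their deactivation, and lies on chr19:5092868-5098521 (minus strand). Controls had 31.1, 45.9, 48.2, 14.8 and 20.01 CPM, and SCL libraries 59.0, 67.9, 97.6 and 51.8 CPM. Every SCL library was above the highest control, and control 4 and control 5 were the lowest of all. Cnih2 rose 2.15-fold (log2 fold change 1.105, SE 0.32, adjusted p = 0.0248 by edgeR). The call was lost without control 5 (0.97, adjusted p = 0.0599), SCL 2 (1.12, adjusted p = 0.0503) or SCL 3 (0.90, adjusted p = 0.0865), and without both control 4 and control 5 the log2 fold change was 0.71 (adjusted p = 0.0578 by edgeR).

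Cnih2 also moved with the GC content of the libraries, within the controls and within the ECL group but not within the SCL group. Its longest transcript has 62.3% GC, in the highest of 5 GC classes of the genes tested. The slope of log2 level per 10 points of GC was -0.374 in control 4 and -0.147 in control 5, which had the lowest Cnih2, and 0.329 in ECL 3, which had the highest. Among the SCL libraries, SCL 4 (slope 0.0672) had the lowest Cnih2, 51.8 CPM, and SCL 3 (slope 0.0557) the highest, 97.6 CPM. Pairs of libraries at nearby slopes differed by unlike amounts. Control 5 had 20.01 CPM and ECL 2 (slope -0.145) had 71.1 CPM, while control 2 (slope 0.128) had 45.9 CPM and SCL 2 (slope 0.103) had 67.9 CPM. The part of GC content in the Cnih2 difference was not tested beyond the offset for length and GC given above.

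**Figure D5:**
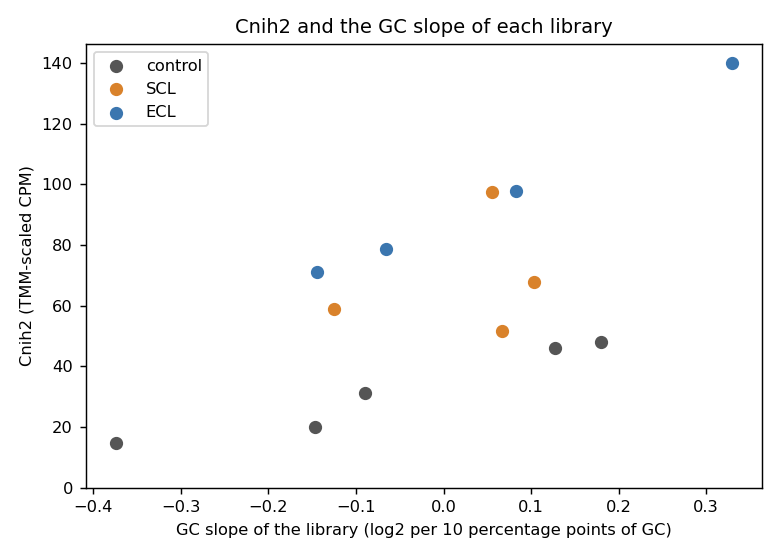
Cnih2 in TMM-scaled CPM (vertical axis) against the GC slope of each library (horizontal axis, log2 per 10 percentage points of GC), 1 point per library. Controls (grey) lie between 14.8 and 48.2 CPM, below the SCL (orange) and ECL (blue) libraries, and within the controls the libraries with lower slopes have less Cnih2.

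Cnih3, the closest relative of Cnih2 (chr1:181352628-181460641, plus strand), stayed level. It ran from 86.3 to 109 CPM in controls, 88.5 to 109 after SCL and 87.1 to 111 after ECL. Its log2 fold change was 0.06 after SCL (95% interval -0.20 to 0.31) and -0.01 after ECL (95% interval -0.30 to 0.28), neither called. Within a library, Cnih2 stood at 0.163 to 0.532 of Cnih3 in controls, 0.585 to 0.967 after SCL and 0.817 to 1.26 after ECL, as a ratio of CPM without regard to length. The controls thus overlapped neither lesion in this ratio.

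Since Cnih2 and Cnih3 differed in their counts, the 250 bases before their RefSeq start sites are shown (RefSeq, GRCm38.p6, gene strand), together with those of Gria2. The table held 7 of the 10 members, without Gria1, Gria3 and Shisa9. Capitals mark the GC box GGGCGG, a site of Sp1-type factors, read on either strand, and the E-box CACGTG. The windows are chr19:5098522-5098771 (minus strand) for Cnih2, chr1:181352378-181352627 (plus strand) for Cnih3 and chr3:80802836-80803085 (minus strand) for Gria2.
Cnih2: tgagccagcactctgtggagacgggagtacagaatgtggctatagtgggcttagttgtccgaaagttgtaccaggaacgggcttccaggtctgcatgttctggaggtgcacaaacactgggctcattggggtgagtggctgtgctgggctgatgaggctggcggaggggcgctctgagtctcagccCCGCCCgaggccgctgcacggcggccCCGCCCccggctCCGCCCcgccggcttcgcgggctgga
Cnih3: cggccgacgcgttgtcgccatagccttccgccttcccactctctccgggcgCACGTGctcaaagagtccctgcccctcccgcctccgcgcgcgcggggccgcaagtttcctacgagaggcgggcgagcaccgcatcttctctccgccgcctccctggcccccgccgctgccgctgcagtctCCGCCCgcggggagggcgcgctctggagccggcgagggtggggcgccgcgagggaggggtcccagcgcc
Gria2: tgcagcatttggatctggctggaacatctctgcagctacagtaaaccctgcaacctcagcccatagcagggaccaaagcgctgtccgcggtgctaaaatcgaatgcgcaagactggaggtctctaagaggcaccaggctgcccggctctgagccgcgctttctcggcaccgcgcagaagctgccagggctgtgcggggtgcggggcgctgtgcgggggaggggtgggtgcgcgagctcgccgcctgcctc
Cnih2 held 3 GC boxes and Cnih3 held 1, and a GC box was found in 32.7% of the 32851 promoters of the table. The E-box of Cnih3 was found in 6.02% of promoters. The EGR sites GCGGGGGCG (2.57% of promoters) and GCGTGGGCG (0.536%) and the CRE TGACGTCA (1.55%), read on both strands, were in none of the 7 windows, and the window of Gria2 held none of the motifs searched. Gria4, Cacng2, Cacng3 and Cacng8 held none of them either. By the gene coordinates printed here, however, the windows of Cacng2, Cacng3 and Cacng8 lie inside the gene. For these genes the search therefore does not describe the sequence before the first base of the gene. A match in these letters is a description of the window and not of binding.

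The TARPs Cacng2 (stargazin, chr15:77991748-78120028, minus strand) and Cacng3 (chr7:122670492-122769393, plus strand) anchor AMPA receptors at the postsynaptic density. Cacng2 had 28.1, 31.9, 25.7, 21.8 and 21.4 CPM in controls and 24.7, 28.4, 33.96 and 24.1 CPM after SCL. Its log2 fold change was 0.11 (95% interval -0.27 to 0.48), and that of Cacng3 was 0.07 (-0.37 to 0.51), neither called. Shisa9 (chr16:11984113-12270902, plus strand) ran from 14.2 to 23.4 CPM in controls and from 10.5 to 14.7 after SCL, with a log2 fold change of -0.43 (SE 0.20, adjusted p = 0.125 by edgeR). The overlap rested on the lowest control and the 2 highest SCL libraries. Cacng8 (chr7:3390683-3415648, plus strand) ran from 1.07 to 2.97 CPM in controls, 1.89 to 2.72 after SCL and 1.87 to 2.63 after ECL. All its ranges overlapped.

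After ECL, the same auxiliary gene rose and no subunit gene passed the threshold. Cnih2 was the only one of 9 members called, while 27.6% of the 11392 genes tested were called, 15.1% higher and 12.4% lower. In addition to Cnih2, Gria3 did not overlap with the controls, against 24.9% of all genes. The median log2 fold change was -0.34 over the 4 subunits, 0.47 over the 5 auxiliary genes tested and -0.01 over all genes tested. Both lesions were set against the same 5 controls, so that their differences share those values.

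Cnih2 had 78.6, 71.1, 139.97 and 97.9 CPM after ECL, all above the controls. It rose 3.04-fold (log2 fold change 1.60, SE 0.31, adjusted p = 0.00237 by edgeR). It was called under all 23 alternatives, with log2 fold changes from 1.21 to 1.80.

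The subunits had negative log2 fold changes that did not pass the threshold. Gria3 had 166, 231, 206 and 208 CPM, all under the lowest control, and a log2 fold change of -0.42 (SE 0.15, adjusted p = 0.0524 by edgeR). DESeq2 gave it an adjusted p of 0.0331. Gria2 had 1065, 1331, 1151 and 1038 CPM, with ECL 2 inside the control range, and a log2 fold change of -0.30 (SE 0.14, adjusted p = 0.135). Gria1 had 433, 423, 499 and 424 CPM, with ECL 3 inside the control range, and a log2 fold change of -0.22 (SE 0.14, adjusted p = 0.249). Gria4 had 38.3, 37.4, 28.9 and 46.3 CPM and a log2 fold change of -0.39 (SE 0.22, adjusted p = 0.211 by edgeR).

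Both TARPs tested had positive values. Cacng3 had 29.2, 29.2, 27.2, 18.9 and 25.99 CPM in controls, and 22.8, 37.6, 51.7 and 41.4 CPM after ECL. Cacng2 had 22.6, 36.3, 39.99 and 43.9 CPM after ECL. In both genes ECL 1 lay inside the control range and the other 3 above it. ECL 1 was the only culture of this group labelled female and also had the largest total of the group, 46449937 counts. Among the SCL libraries the only one labelled male, SCL 4, had the lowest Cacng3 (19.6 CPM) and Cacng2 (24.1 CPM). SCL 4 also had the smallest total of its group, 16405517 counts. The part of sex or of the totals in these single libraries was not tested. The log2 fold changes were 0.56 for Cacng3 (SE 0.22, adjusted p = 0.0695) and 0.47 for Cacng2 (SE 0.20, adjusted p = 0.0974), and without ECL 1 they were 0.76 and 0.65 (adjusted p = 0.0156 and 0.0250 by edgeR). With TMM factors over all symbols, which moved the median of all genes from -0.01 to 0.18, both were called at 0.73 and 0.64. Shisa9 had 12.4, 18.3, 9.14 and 13.5 CPM after ECL, overlapping with controls, and a log2 fold change of -0.38 (SE 0.23, adjusted p = 0.238 by edgeR).

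After ECL, summed neuron markers ran from 4210 to 5786 CPM, with 6 of 12 markers lower, and summed microglia markers from 1331 to 1735 CPM, with 8 of 12 higher. Of the 9 CA1 pyramidal cell markers, 2 were lower after SCL and 0 were called after ECL. Of the CA3 pyramidal cell markers, 2 of 7 tested were lower after SCL and 2 of 6 after ECL. Of the 12 GABAergic interneuron markers, 3 were lower and 1 higher after SCL, and 5 were lower and 1 higher after ECL. Of the 12 astrocyte markers, 6 were higher after SCL, and 5 were higher and 1 lower after ECL. Their part in the values of the members was not tested.

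Whether both lesions differed from each other was tested directly. No member was called, and none of the 12478 genes tested was (0%), with 918 genes or 7.36% at an unadjusted p under 0.05. DESeq2 called 64 genes, none of them a member. Gria1 was 19.1% higher after ECL than after SCL (log2 fold change 0.25, 95% interval -0.03 to 0.53, adjusted p = 0.705) and was the only member whose groups did not overlap, against 3.85% of all genes. For Cnih2 the log2 fold change was 0.50 (95% interval -0.04 to 1.03), for Cacng3 0.49 (-0.06 to 1.05) and for Cacng2 0.37 (-0.08 to 0.82), with adjusted p = 0.702, 0.712 and 0.742 by edgeR. Gria2 had 0.15 (-0.18 to 0.48), Gria3 -0.01 (-0.31 to 0.30) and Gria4 0.10 (-0.23 to 0.43). Cnih3 had -0.06 (-0.35 to 0.23) and Shisa9 0.06 (-0.43 to 0.54).

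The mix of subunits was described by ratios within a library, which need no library scaling. Such ratios keep any dependence of counts on gene length and GC. Gria1 has 6043 bases of exon and 48.5% GC, and Gria2 has 15548 bases and 36.8% GC. With the offset for length and GC given above, Gria1 stayed negative after SCL while Gria2 turned positive. The ratios were not tested with this offset. Per exon length, Gria1 made up 40.6 ± 4.16% of the 4 subunits in controls, 40.02 ± 1.85% after SCL and 42.4 ± 3.26% after ECL (SD). Gria2 made up 42.8 ± 2.79%, 43.0 ± 2.47% and 42.3 ± 2.75%, Gria3 12.9 ± 1.34%, 13.4 ± 0.912% and 11.8 ± 1.13%, and Gria4 3.69 ± 1.04%, 3.62 ± 0.246% and 3.47 ± 0.811%. Shares of all 4 genes overlapped between the groups.

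The counts of Gria1, Gria3 and Gria4 were set against those of Gria2 in 9 two-sided exact permutation tests. The Gria1 count was 32.4% to 47.7% of that of Gria2 in controls, 32.2% to 40.4% after SCL and 31.7% to 43.3% after ECL. For Gria3 the ratio was 17.1% to 21.99%, 17.2% to 22.5% and 15.6% to 20.02%, and for Gria4 2.37% to 4.47%, 3.07% to 3.95% and 2.51% to 4.46%. The difference with the smallest p was that of Gria3 to Gria2 between ECL and SCL, at -0.16 on the log2 scale (exact permutation p = 0.229). The adjusted p was 0.984 in all 9 exact tests, and the smallest p that the design allows is 0.00794 against controls and 0.0286 between the lesions. With 9 tests adjusted together, a single ratio at this smallest p would still lie above 0.05, so that the adjusted values do not show whether the mix stayed the same.

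Summed over the genes, the 4 subunits had 2006 to 2532 CPM in controls, 1574 to 1751 after SCL and 1702 to 2022 after ECL. The 6 auxiliary genes had 172 to 215 CPM in controls, 197 to 280 after SCL and 226 to 355 after ECL. Without Cnih2, the other 5 auxiliary genes had 157 to 184, 146 to 182 and 147 to 215 CPM, with overlap between all groups.

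Of the other proteins of the receptor complex, 14 of 17 listed were tested. SCL gave 2 lower calls, and ECL gave 2 lower calls and 1 higher call, beside 24.6% and 27.6% of all genes tested called in either direction. With TMM over all symbols, ECL gave 2 lower and 3 higher calls. Rap2b, a small GTPase, fell in both (log2 fold change -1.30, adjusted p = 0.00718 after SCL, and -1.90, adjusted p = 0.000359 after ECL by edgeR). It ran from 106 to 314 CPM in controls, 56.5 to 89.6 after SCL and 45.3 to 55.5 after ECL, and was called under all 23 alternatives of each lesion. However, 58.3% of its exon bases are shared with B430305J03Rik and Gm37696 on the other strand, and the counts do not tell strands apart. How reads in shared bases were assigned was not examined. Prrt2, with 92.4% of its exon bases shared with another gene, had 0 counts in all libraries. Gsg1l, an auxiliary subunit that slows recovery from desensitization, fell by 0.81 on the log2 scale after SCL (adjusted p = 0.0178) and by 0.99 after ECL (adjusted p = 0.0174 by edgeR). Its levels were 13.8 to 20.8 CPM in controls, 7.36 to 12.5 after SCL and 5.37 to 13.7 after ECL. The Gsg1l call held under 18 of 23 alternatives after SCL and 19 of 23 after ECL. After SCL it was lost with TMM over all symbols, scaling to neuron markers, no minimum, without SCL 3 and without controls 4 and 5 together, and after ECL with scaling to neuron markers, without ECL 1, without ECL 4 and without controls 4 and 5 together. Nrn1, which encodes neuritin, rose after ECL (0.75, adjusted p = 0.0453), a call that held under 13 of 23 alternatives. Of its exon bases, 22.3% are shared with a gene on the other strand.

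Proteins of receptor assembly in the endoplasmic reticulum gave 2 higher and 0 lower calls among 5 tested after each lesion, beside 13% and 15.1% of all genes tested called higher after SCL and ECL. Abhd6, a hydrolase of endocannabinoids that also binds AMPA receptor subunits, rose by 0.48 on the log2 scale with SCL (adjusted p = 0.0240) and by 0.73 with ECL (adjusted p = 0.00191 by edgeR). It ran from 64.3 to 76.9 CPM in controls, 80.7 to 113 after SCL and 97.7 to 136 after ECL, without overlap with the controls. Abhd12, a lipase of lysophosphatidylserine, had 0.41 (adjusted p = 0.0436) and 0.55 (adjusted p = 0.0164). After SCL, Abhd6 was called under 15 of 23 alternatives and Abhd12 under 10, which included 5 and 1 of the 9 that leave out a single library. With the offset for length and GC content, neither was called after SCL, and Abhd12 had 0.23. After ECL, Abhd6 was called under all 23 and Abhd12 under 21.

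Of the scaffolding and trafficking genes, 6 of 21 tested after SCL and 7 of 22 after ECL were called, all lower, beside 24.6% and 27.6% of all genes tested called in either direction and 11.6% and 12.4% called lower. With TMM over all symbols SCL gave 1 call in each direction, and ECL gave 1 lower call only. With the offset for length and GC, SCL gave 1 higher and 2 lower calls, and ECL 1 higher and 3 lower. Ppfia2, the presynaptic and dendritic adaptor liprin-alpha2, fell by 0.88 after SCL (adjusted p = 0.00937) and by 0.74 after ECL (adjusted p = 0.0112) on the log2 scale. Myo5a, a motor of vesicle transport into spines, fell by 0.56 and 0.54 (adjusted p = 0.00879 and 0.00980). In both lesions the Myo5a call was lost with TMM over all symbols, scaling to neuron markers, no minimum and the offset for length and GC, with which the log2 fold changes were -0.22 and -0.24. Kif5c, a kinesin, fell by 0.55 after SCL (adjusted p = 0.00940), and Myo6, a motor linked to receptor endocytosis, fell by 0.92 after ECL (adjusted p = 0.00725 by edgeR). Myo6 was also called lower after SCL, whereas Kif5c was not called after ECL. The Kif5c call was lost with TMM over all symbols, scaling to neuron markers and no minimum, and the Ppfia2 call after ECL with TMM over all symbols and without controls 4 and 5 together. Of the exon bases of Ppfia2, 24.5% are shared with genes on the other strand.

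The enzyme that edits the Q/R site shown above, ADAR2, is encoded by Adarb1. It ran from 50.1 to 75.7 CPM in controls, 37.8 to 62.0 after SCL and 36.8 to 45.9 after ECL, so that the ECL libraries lay below all controls. Adarb1 fell by 0.59 on the log2 scale after ECL (SE 0.16, adjusted p = 0.0132), and had -0.48 (SE 0.17, adjusted p = 0.0618 by edgeR) after SCL. The difference between the lesions was -0.11 (95% interval -0.48 to 0.26). The ECL call held under 19 of 23 alternatives. It was lost with TMM over all symbols, scaling to neuron markers, no minimum and without ECL 2. None of the other 3 genes tested of the editing and splicing enzymes was called in either lesion. After ECL, 1 of 4 was thus called, beside 27.6% of all genes tested.

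Kainate receptors, the nearest relatives of AMPA receptors, gave 1 call in each lesion, beside 24.6% and 27.6% of all genes tested. Grik1 fell by 0.60 after SCL (adjusted p = 0.0112, 7 genes tested) and by 0.64 after ECL (adjusted p = 0.0134 by edgeR, 6 genes tested) on the log2 scale. In both lesions this call was lost with TMM over all symbols, scaling to neuron markers and no minimum. Of the NMDA receptor genes, Grin2b fell by 0.52 after SCL (adjusted p = 0.0264) and had -0.06 after ECL (adjusted p = 0.819), while Grin1 and Grin2a were called in neither. The Grin2b call held under 16 of 23 alternatives. It was lost with TMM over all symbols, scaling to neuron markers, no minimum, without control 3, SCL 2 or SCL 4, and with the offset for length and GC, where the log2 fold change was -0.056 (adjusted p = 0.849 by edgeR). The Grin2b difference between the lesions was 0.46 (95% interval 0.02 to 0.91, adjusted p = 0.667 by edgeR).

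For each of the main subunits, the 3 genes with the most similar pattern over the 13 libraries were looked up, by the root mean square difference of centred log2 CPM among 11872 genes. For Gria1 they were Hsp90ab1 (0.104), Tut7 (0.112) and Slitrk1 (0.114). For Gria2 they were Senp6 (0.0825), Csnk1a1 (0.0880) and Kif21a (0.0925). Gria1 and Gria2 themselves differed by 0.180. The listed genes lie closer because they were picked as the closest, so this says nothing on how alike Gria1 and Gria2 are. All values share the scaling of the same libraries.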

How the data were processed

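RNA of 13 CA1 cultures (5 control, 4 SCL, 4 ECL) was reverse transcribed and amplified with a low input kit and sequenced as 150 base pairs paired-end. The authors trimmed reads with cutadapt 3.5, mapped them with STAR 2.7.8a to mm10 (GRCm38) and counted them per gene with featureCounts 2.0.1 on GENCODE M25 without strand (versions from the submitters' processing notes). The deposited values are raw counts, not normalized, for 55291 symbols. Of the low counts (1 to 20), 63.0% to 74.3% a library were even, as if both mates of a pair were counted, and halved counts were fitted as well. No library repeated another (at most 0.495% equal counts among genes over 100 counts).

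Here, counts were tested with edgeR 4.0.16 in R 4.3.3 (glmQLFit, glmQLFTest, two-sided) in 1 fit per pair of groups, with TMM factors over the genes tested, a mean of at least 150 normalized counts, Benjamini-Hochberg adjustment over all genes tested and a threshold of 0.05. SE is the absolute log2 fold change over the square root of F. Printed CPM use TMM factors over all 13 libraries and describe levels relative to those genes. Ratios of subunits were tested by exact permutation. Exon lengths, GC content and coordinates come from GENCODE M21 on the same build, which holds 53292 of the symbols, and length and GC were known for 98.7% of genes tested in each lesion. Promoters come from RefSeq (GRCm38.p6). The code was tested on simulated data.

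The members, gene lists and alternatives were chosen with earlier results of these data known. Named were all members, per other list at most 3 called genes with the smallest adjusted p per lesion (any gene of lists up to 7), 3 genes most like Gria1 and Gria2, and Grin1, Grin2a and Grin2b. Beside leaving out each library, 11 other settings were tried: DESeq2 1.42.0, other scalings (RLE, TMM over all symbols, neuron markers), no minimum or 50, a single fit, a replicate block, a sex term, halved counts, and an offset for length and GC (mgcv 1.9.3). Chosen after seeing the data were 3 more: a block by the heading number of each count column, counts thinned to the smallest total, and leaving out controls 4 and 5 together.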

Additional observations from a re-analysis of the deposited data

Results flagged for a closer look

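Of 30 groups of values (10 members in 3 groups), 3 held a library far from the others by Dixon's test at the 95% level, while chance alone gives about 1 in 20. Gria3 was 348 CPM in control 4, against 241 to 262 CPM in the other controls. Gria3 was 234 CPM in SCL 1, against 192 to 197 CPM in the other SCL libraries. Gria1 was 499 CPM in ECL 3, against 423 to 433 CPM in the other ECL libraries. Without control 4 the log2 fold change of Gria3 after SCL was -0.31 (adjusted p = 0.0750 by edgeR), and without SCL 1 it was -0.48. Control 4 and ECL 3 also had the lowest and highest GC slopes of the libraries, -0.374 and 0.329 (log2 per 10 points), and the part of this in their values was not tested.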

How the results depend on the processing

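Cnih2 after ECL kept its direction and its side of the threshold under all 23 alternatives; the log2 fold changes of Gria1 and Gria3 after SCL stayed negative under all 23, but their calls did not hold throughout. The number of members called after SCL, 4 as reported, was 1 with TMM over all symbols, 1 with scaling to neuron markers, 1 with no mean minimum, 2 with the offset for length and GC, 1 without controls 4 and 5 together, and 0 to 3 when each library was left out (0 without SCL 2 or SCL 3, 1 without control 5, 2 without control 1 or SCL 4). After ECL, 1 as reported, it was 2 with DESeq2, 3 with TMM over all symbols, 2 with neuron marker scaling, 3 with no mean minimum, 2 in a single fit, 2 with thinned counts, and 1 to 3 when each library was left out (3 without ECL 1). All genes called after SCL numbered 5390 of 48069 with no minimum and 1672 to 2828 when a library was left out (1672 without SCL 3, 1904 without SCL 2), and after ECL 8034 of 47784 with no minimum. Between the lesions, 0 as reported, there were 64 by DESeq2, 217 with no minimum, 1 in a single fit, 1 with a sex term, 1 with thinned counts, and 0 to 54 when a library was left out (54 without SCL 3).

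Whether the replicate numbers pair the cultures was not settled. Same-numbered libraries had correlations of deviations from -0.16 to 0.52. The highest was that of ECL 1 and SCL 1, whose column headings also share number and sex. Differently numbered libraries were not correlated, so that these values have no baseline and do not decide on pairing. As a block, the replicate number left 2 members called after SCL and 1 after ECL, with 2358 and 2693 genes in all and Cnih3 at 0.0042 after ECL. A block by the heading number of each count column left 0 members and 1824 genes after SCL, with Gria1, Gria2, Gria3 and Cnih2 at -0.49, -0.46, -0.39 and 1.09 (adjusted p = 0.0543, 0.0779, 0.116 and 0.0625 by edgeR).

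Signs turned in these cases, with the cause not tested. With the offset for length and GC, log2 fold changes were 0.14 (Gria2), -0.12 (Cacng3) and -0.15 (Cnih3) after SCL, 0.19 (Gria2) after ECL, and 0.00745 (Gria3) between the lesions. Without controls 4 and 5, Cacng2 and Cacng3 had -0.059 and -0.076 after SCL. Cnih3 after ECL was 0.18 with TMM over all symbols and with no minimum, 0.17 with neuron scaling and 0.022 with thinned counts, and Gria3 between the lesions was 0.00267 with neuron scaling. Leaving out libraries gave -0.085 to 0.20 for Cacng3 after SCL, -0.093 to 0.043 for Cnih3 after ECL and, between the lesions, -0.071 to 0.082 for Gria3, -0.016 to 0.20 for Gria4 and -0.13 to 0.20 for Shisa9. The log2 ratio differences then ran from -0.073 to 0.074 (Gria1 to Gria2), -0.017 to 0.11 (Gria3 to Gria2) and -0.11 to 0.12 (Gria4 to Gria2) after SCL, and for Gria4 to Gria2 from -0.20 to 0.076 after ECL and -0.22 to 0.058 between the lesions. Cacng8, at 16 to 123 counts a library, lay under the mean minimum and was not tested. With no minimum its log2 fold changes were 0.30 after SCL and 0.23 after ECL (adjusted p = 0.705 and 0.761 by edgeR).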
